A study of Mus musculus with 3 samples.

Results

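The 10 integrin genes described here were Itgae, Itga4, Itgal, Itgav and Itga6, which encode alpha chains, and Itgb7, Itgb1, Itgb2, Itgb8 and Itgb3, which encode beta chains. They were taken as a named list of leukocyte integrins, and all 10 were found among the 55536 mouse genes measured. PolyA-selected RNA-seq was deposited for 3 libraries of activated regulatory T cells, the Foxp3-dependent CD4 T cells that restrain immune responses. The cells came from an adult male mouse aged 4 months, of the strain Foxp3CreERT2 x Rosa26YFP, in which an inducible Cre recombinase is expressed from the Foxp3 gene and YFP is a reporter at Rosa26. The labels name bone marrow hematopoietic cells as the origin of the cells, give no sort or gate, and number the libraries as technical replicates 1, 2 and 3 of 1 biological replicate. There was 1 group and no control, so the data give levels and the spread between libraries of 1 biological replicate, and no effect of activation.

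Integrins are heterodimers of 1 alpha and 1 beta chain that hold cells to other cells and to matrix, and a chain reaches the surface only with a partner. In lymphocytes, alpha L beta 2 (LFA-1) binds ICAMs, alpha 4 beta 7 binds MAdCAM-1 on gut vessels, alpha 4 beta 1 (VLA-4) binds VCAM-1 and fibronectin, and alpha E beta 7 (CD103) binds E-cadherin on epithelium. Alpha v beta 8 binds latent TGF-beta and is known for releasing its active form at the surface of regulatory T cells, alpha v beta 3 binds vitronectin and osteopontin, and alpha 6 beta 1 binds laminin.

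The libraries held 10981924, 9700630 and 6667391 expected counts in replicates 1, 2 and 3. All 7 regulatory T cell markers, Foxp3, Il2ra, Ikzf2, Ctla4, Tnfrsf18, Cd4 and Cd3e, were at 10 TPM or more in every library, where TPM is a level per transcript length. Their levels were not even between libraries. Ctla4 was at 190, 250 and 612 TPM in replicates 1, 2 and 3, and Foxp3 at 29.5, 28.7 and 49.8 TPM. Il2ra, Ikzf2, Tnfrsf18, Cd4 and Cd3e were instead lowest in replicate 3. Markers of other cells were also present and differed between libraries. The summed level of 7 B cell markers was 1790, 1478 and 3111 TPM in replicates 1, 2 and 3, and it came mostly from Ighm and Igkc. The 4 plasma cell markers summed to 96.7, 48.3 and 151 TPM, the 6 erythroid markers to 798, 5.30 and 23.4 TPM, and the 9 myeloid markers to 28.5, 10.3 and 24.9 TPM. The 5 CD8 or NK cell markers summed to 19.5, 16.2 and 13.9 TPM. Of these, Cd8b1 was at 14.05, 13.8 and 12.3 TPM, while Cd8a was at 2.13, 1.17 and 0.66 TPM. The 6 dendritic markers summed to 2.60, 3.10 and 3.50 TPM, and the 8 endothelial, epithelial or stromal markers to 2.64, 3.44 and 1.35 TPM. Within the myeloid list, Ly6g, which marks neutrophils, was at 0 in all 3 libraries. S100a8, also a neutrophil gene, was at 1.43, 0 and 1.15 TPM from 4, 0 and 2 counts. The 9 platelet markers summed to 1.35, 0.96 and 2.42 TPM with 4 of them at 0 throughout.

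The chains meet the cell interior through short tails, and the coding sequences of these tails are shown because the forms of Itga6 and the partners described further on differ there. Alpha tails are given from the GFFKR motif next to the membrane, where the alpha and beta tails clasp each other, to the stop codon, with the 5 codons of the motif in capitals. Sequences are the sense strand of GENCODE M21 transcripts on mm10, from the full-length coding transcript of each gene that led in the main table and from both forms of Itga6.
Itgae-201: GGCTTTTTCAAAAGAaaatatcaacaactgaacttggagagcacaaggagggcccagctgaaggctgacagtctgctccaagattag
Itga4-201: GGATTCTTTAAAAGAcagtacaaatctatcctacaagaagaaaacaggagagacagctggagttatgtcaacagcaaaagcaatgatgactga
Itgal-201: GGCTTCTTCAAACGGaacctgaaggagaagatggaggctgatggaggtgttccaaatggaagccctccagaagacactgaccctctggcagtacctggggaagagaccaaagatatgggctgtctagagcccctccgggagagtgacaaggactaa
Itgav-202: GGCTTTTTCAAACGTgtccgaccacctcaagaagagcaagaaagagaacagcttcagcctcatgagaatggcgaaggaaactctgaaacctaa
Itga6-201: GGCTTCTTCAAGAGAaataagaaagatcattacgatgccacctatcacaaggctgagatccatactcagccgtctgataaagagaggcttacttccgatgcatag
Itga6-202: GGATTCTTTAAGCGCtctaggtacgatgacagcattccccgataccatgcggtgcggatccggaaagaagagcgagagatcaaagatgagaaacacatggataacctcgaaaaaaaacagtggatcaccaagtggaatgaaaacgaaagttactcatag
These stretches lie at chr11:73147054-73147140 in Itgae, chr2:79326523-79326615 in Itga4, chr7:127333455-127333610 in Itgal, chr2:83803243-83803335 in Itgav, chr2:71853537-71853641 in the first Itga6 form and chr2:71855857-71856015 in the second, all on the plus strand. The tails encode 28, 30, 51, 30, 34 and 52 amino acids in that order. GFFKR stood in the last 60 codons, stop included, of 0.0485% of 53639 M21 coding sequences.

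For the beta chains the last 50 codons, stop included, are given, with each NPxY or NPxF motif in capitals. These motifs are the docking sites of talin and kindlin, the cytoplasmic proteins that switch integrins on.
Itgb7-201: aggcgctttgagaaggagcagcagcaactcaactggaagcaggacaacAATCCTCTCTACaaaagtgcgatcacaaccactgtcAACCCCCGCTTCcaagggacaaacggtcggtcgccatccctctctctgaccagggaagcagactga
Itgb1-201: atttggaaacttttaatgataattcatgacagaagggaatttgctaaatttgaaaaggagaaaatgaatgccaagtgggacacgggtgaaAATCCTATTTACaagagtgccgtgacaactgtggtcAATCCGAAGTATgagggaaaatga
Itgb2-201: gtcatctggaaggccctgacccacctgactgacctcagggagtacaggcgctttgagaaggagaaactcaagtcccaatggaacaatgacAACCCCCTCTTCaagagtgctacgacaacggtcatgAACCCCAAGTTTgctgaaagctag
Itgb8-201: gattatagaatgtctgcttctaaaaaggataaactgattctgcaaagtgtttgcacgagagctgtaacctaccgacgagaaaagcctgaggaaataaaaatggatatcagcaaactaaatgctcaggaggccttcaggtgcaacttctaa
Itgb3-201: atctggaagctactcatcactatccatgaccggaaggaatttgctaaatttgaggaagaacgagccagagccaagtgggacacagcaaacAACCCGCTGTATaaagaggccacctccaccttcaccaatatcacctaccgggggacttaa
The spans on mm10, introns included, are chr15:102216160-102216513 (minus strand) in Itgb7, chr8:128726103-128732088 in Itgb1, chr10:77564718-77565240 in Itgb2, chr12:119163117-119163363 (minus strand) in Itgb8 and chr11:104665549-104667145 in Itgb3. Itgb7, Itgb1 and Itgb2 each hold 2 such motifs, Itgb3 holds 1 in this window and Itgb8 holds none. Of all M21 coding sequences, 0.748% hold either motif in their last 50 codons.

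The first question was how much of each chain's RNA the cells held. All 10 genes were at 1 TPM or more in every library, and 8 were at 10 TPM or more in all 3, the exceptions being Itgb8 and Itgb3. The median of the 10 mean levels was 113 TPM, beside 14.5 TPM over the 12997 genes with a mean of at least 10 counts. The beta chains Itgb2 and Itgb7 were highest, and the beta chains Itgb3 and Itgb8 were lowest, 38.9-fold apart at the ends.

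Among the alpha chains, Itgal (chr7:127296260-127335138), the alpha chain of LFA-1, was at 182, 223 and 114 TPM in replicates 1, 2 and 3, from 7231, 7474 and 2736 counts. Replicate 3 was low, and the mean was 173 ± 55.2 TPM (SD, n = 3). Itga4 (chr2:79255426-79333123), the chain shared by VLA-4 and the gut-homing integrin, was at 141, 147 and 116 TPM, from 5431, 4707 and 2947 counts. Its 3 libraries lay close together at 135 ± 16.8 TPM. Itgae (chr11:73090583-73147446) is the CD103 chain that retains T cells in epithelia and marks a subset of regulatory T cells. Its level was 92.3, 116 and 65.5 TPM, from 3025, 3114 and 1304 counts, with replicate 3 again the lowest and a mean of 91.1 ± 25.1 TPM.

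The other 2 alpha chains were lower. Itgav (chr2:83724397-83806916), the only known alpha partner of the beta 8 chain, was at 34.8, 33.6 and 43.6 TPM, from 539, 378 and 326 counts. Here replicate 3 was highest, and the mean was 37.3 ± 5.49 TPM. Itga6 (chr2:71745616-71858416), a laminin receptor chain, was at 34.2, 37.2 and 37.8 TPM, from 871, 796 and 586 counts. The levels of Itgav and Itga6 overlapped, at 36.4 ± 1.91 TPM for Itga6.

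Of the beta chains, Itgb2 (chr10:77530252-77565708) is the common chain of leukocyte beta 2 integrins. Its level was 303, 531 and 299.9 TPM, from 7264, 10599 and 4345 counts, and replicate 2 stood far above the other libraries. Itgb7 (chr15:102215995-102231944, minus strand), the partner of both gut-associated alpha chains, was at 421, 402 and 303 TPM, from 5924, 4977 and 2475 counts. The means, 378 ± 133 TPM for Itgb2 and 375 ± 63.7 TPM for Itgb7, did not differ beyond their spread by gene TPM. Itgb1 (chr8:128685654-128733200), the most widely paired beta chain, was at 196, 209.8 and 184 TPM, from 6364, 5582 and 3579 counts. It was the third gene by level at 197 ± 13.0 TPM, and its range overlapped that of Itgal.

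Itgb8 (chr12:119158022-119238802, minus strand), which pairs with alpha v alone, was at 12.3, 9.32 and 7.56 TPM, from 533, 326 and 181 counts. Itgb3 (chr11:104608000-104670476), the vitronectin receptor beta chain and also a platelet integrin chain, was at 11.3, 17.1 and 4.17 TPM, from 565, 703 and 127 counts. The means were 9.71 ± 2.37 TPM for Itgb8 and 10.8 ± 6.45 TPM for Itgb3, and their ranges overlapped. Itga2b, the platelet partner of beta 3, was at 0, 0.89 and 1.00 TPM, and none of the 9 platelet markers reached 1 TPM in all libraries. In bulk RNA, fewer cells carrying a transcript and less of it per cell cannot be told apart.

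By gene TPM the order of levels fell into steps. Itgb2 and Itgb7 exceeded Itgb1 in all 3 libraries with ranges that did not overlap, as did Itgae over Itgav and Itga6 over Itgb3. Every other pair of neighbours in the order overlapped. With full-length coding transcripts alone, a measure described below, the order differed. Itgb2 (340.3 TPM) then exceeded Itgb7 (221 TPM) in all 3 libraries with ranges that did not overlap, Itgb7 and Itgb1 (195 TPM) overlapped, and Itgb3 (10.8 TPM) exceeded Itga6 (8.66 TPM) in 2 of 3 libraries. Counts on the older M4 gene models, per coding base, also put Itgb2 above Itgb7 in all 3 libraries and gave overlapping ranges for Itgb7 and Itgb1.

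**Figure D1:**
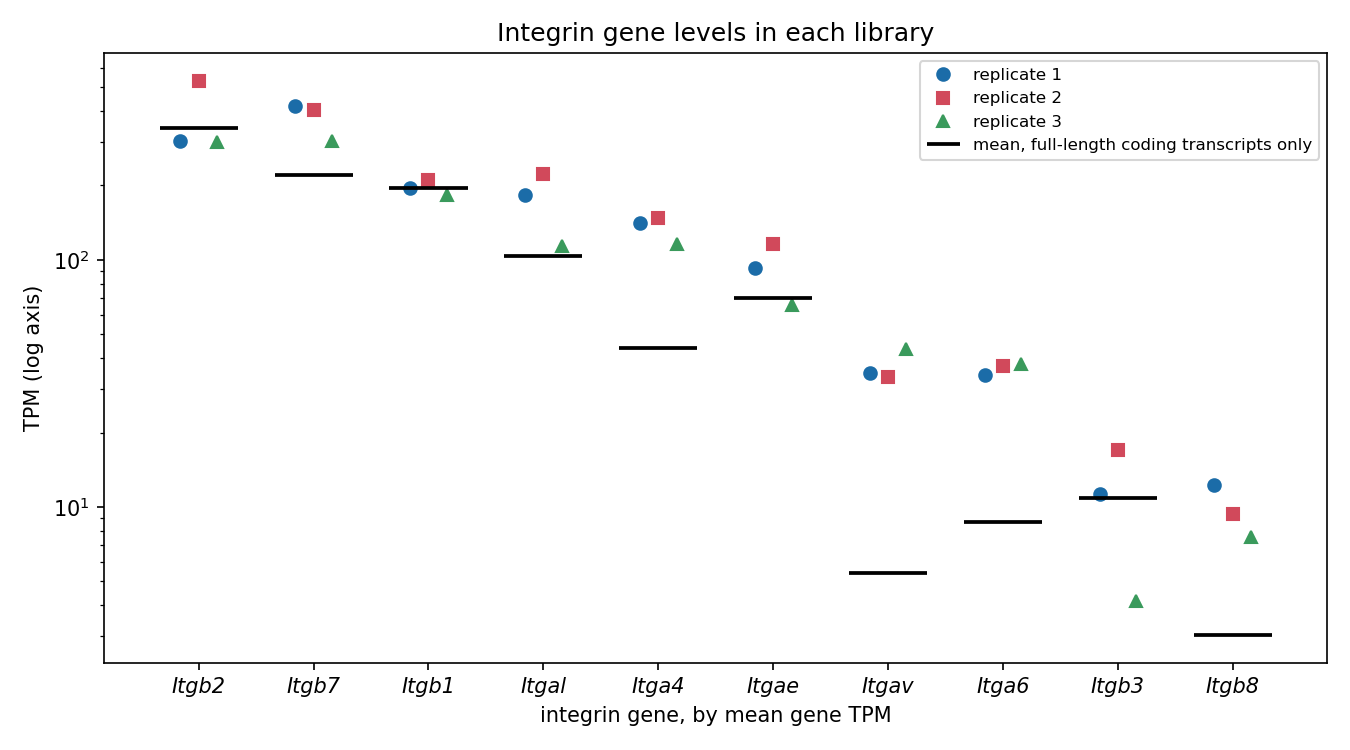
Level of each integrin gene in TPM on a log axis, with 1 point per library (circles, squares and triangles for replicates 1, 2 and 3) and a black bar for the mean TPM of full-length coding transcripts only. Itgb2 and Itgb7 stand highest and Itgb3 and Itgb8 lowest, and the bar lies furthest under the points for Itgav, at 5.38 TPM against a gene mean of 37.3 TPM.

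A second question was which transcripts made up these levels, since a gene's TPM sums all its annotated transcripts and short ones weigh more per count. Transcripts were called full-length coding where they hold a start and a stop codon and at least 80% of the gene's longest complete coding sequence. That class made up 100% of the TPM of Itgb3, 99.0% of Itgb1, 89.2% of Itgb2 and 75.3% of Itgae. It made up 59.0% of Itgal, 58.6% of Itgb7, 33.0% of Itga4, 30.4% of Itgb8, 23.7% of Itga6 and 14.7% of Itgav. The median over 10756 protein-coding genes with such a transcript was 75.2%, so Itgb8, Itga4, Itga6 and Itgav lay well under it. A second deposited table, which estimates transcript levels by another method and is called the second quantification here, had the same leading transcript for all 10 genes. Its share of the leading transcript differed from the main one by more than 1 SD for 4 of them, Itga4, Itgb1, Itgal and Itgb3, with Itgal-201 at 63.1% against 44.9%.

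Itgav showed the widest gap between gene and full-length level. Itgav-205, a 463-base partial coding transcript at chr2:83802921-83806916, took 65.0 ± 1.28% of the gene's TPM (SD, n = 3). It did so with 56.9, 46.2 and 46.9 counts, which were 10.6%, 12.2% and 14.4% of the gene's counts. Its bases all lie within the full-length transcripts, 175 of them in the coding sequence and 288 in an untranslated part, so counts could be divided among these models in more than 1 way. Full-length transcripts Itgav-201 and Itgav-202 together were at 5.38 ± 0.99 TPM, with 62.5 ± 8.40% of the counts. The division between the pair varied, with Itgav-201 at 0 in replicate 1 and at 1.44 and 1.67 TPM in replicates 2 and 3, and Itgav-202 at 6.52, 3.25 and 3.26 TPM. The second quantification gave Itgav-201 207, 207 and 258 counts, so its zero in replicate 1 holds in the main table only. That quantification gave Itgav-202 302, 109 and 0.00013 counts. By mean share of TPM Itgav-201 was then above Itgav-202, at 8.80% against 4.76%, the reverse of the main table.

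For Itgb7, the retained-intron transcript Itgb7-204 of 449 bases took 37.4 ± 4.36% of TPM from 385, 271 and 195 counts. That was 6.50%, 5.44% and 7.86% of the gene's counts, while the full-length Itgb7-201 held 92.7 ± 1.21% of them and 221 ± 48.4 TPM. Itga4 had its full-length transcript Itga4-201, of 9767 bases, at 43.5, 46.3 and 42.4 TPM, the steadiest full-length level of the alpha chains. The shorter processed transcripts Itga4-203 and Itga4-205, which do not encode the full chain, took 26.8% and 20.6% of Itga4's TPM. Itga4 shares 1124 exonic bases (8.04% of its exons) with Cerkl on the opposite strand, and Itgav shares 634 (5.90%) with Gm13684. The labels and headers do not say whether the libraries kept strand, so counts in those stretches are uncertain.

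Retained-intron transcripts also marked Itgae and Itgb8. Itgae-202, which ends before the tail and holds 736 bases outside the exons of Itgae-201, had 16.5%, 21.3% and 36.0% of the gene's counts in replicates 1, 2 and 3. The full-length Itgae-201 was at 77.0, 90.8 and 41.8 TPM, so replicate 3 was lower for it than for the gene as a whole. In Itgb8, the retained-intron transcripts Itgb8-203 and Itgb8-202 took 50.5 ± 7.76% and 19.2 ± 3.08% of TPM, and the full-length Itgb8-201 was at 4.33, 2.93 and 1.84 TPM. Retained-intron transcripts together held 40.2%, 45.6% and 54.5% of Itgb8's counts. Replicate 3 was highest in both genes, and it was also highest in 56.7% of the 5339 genes with such a transcript and at least 100 counts on average. Over all genes the class took 5.77%, 6.35% and 7.43% of counts in replicates 1, 2 and 3. The part of this library-wide difference in the Itgae and Itgb8 values was not tested.

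Itgal divided its counts among 3 long coding transcripts. Itgal-201 was at 59.4, 104 and 63.3 TPM, the nearly identical Itgal-202 at 43.5, 39.9 and 0 TPM, and the partial Itgal-203 at 77.7, 78.5 and 49.1 TPM. The second quantification gave Itgal-202 142 counts in replicate 3, so the zero there was not shared. The division between Itgal-201 and Itgal-202 was therefore stable across neither libraries nor quantifications. All full-length models together also varied, at 103, 144 and 63.8 TPM in replicates 1, 2 and 3 of the main table (104 ± 40.1 TPM). Their share of the gene's TPM was 59.0% there and 72.6% in the second quantification. Itgb1, Itgb2 and Itgb3 were simpler. Itgb1-201, which ends in the widely expressed beta 1A tail printed above, held 99.0 ± 0.74% of Itgb1, and Itgb1-204, a partial model with another tail, was at 0 in all 3 libraries of the main table and had 0, 3.42 and 4.93 counts in the second quantification. Itgb2-201 held 89.2 ± 3.99% of Itgb2.

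Itga6 is known in an A and a B form that differ in the tail. Itga6-201, the A form, was at 6.92, 9.79 and 9.28 TPM from 256, 298 and 209 counts, while Itga6-202, the B form, was at 0 in both quantifications of every library. After the first 2 bases their printed tails part, although both keep the 5 codons of the motif. A count of 0 allows up to 3 counts per library, and the zero for the B form does not settle its absence. Itga6-203, a processed transcript with 59.1 ± 5.67% of the gene's TPM from 502, 415 and 278 counts, holds all 159 bases of the B tail and none of the 105 bases of the A tail. Reads over the B tail could be placed on it, and on Itga6-201, which carries the same bases after its stop codon.

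**Figure D2:**
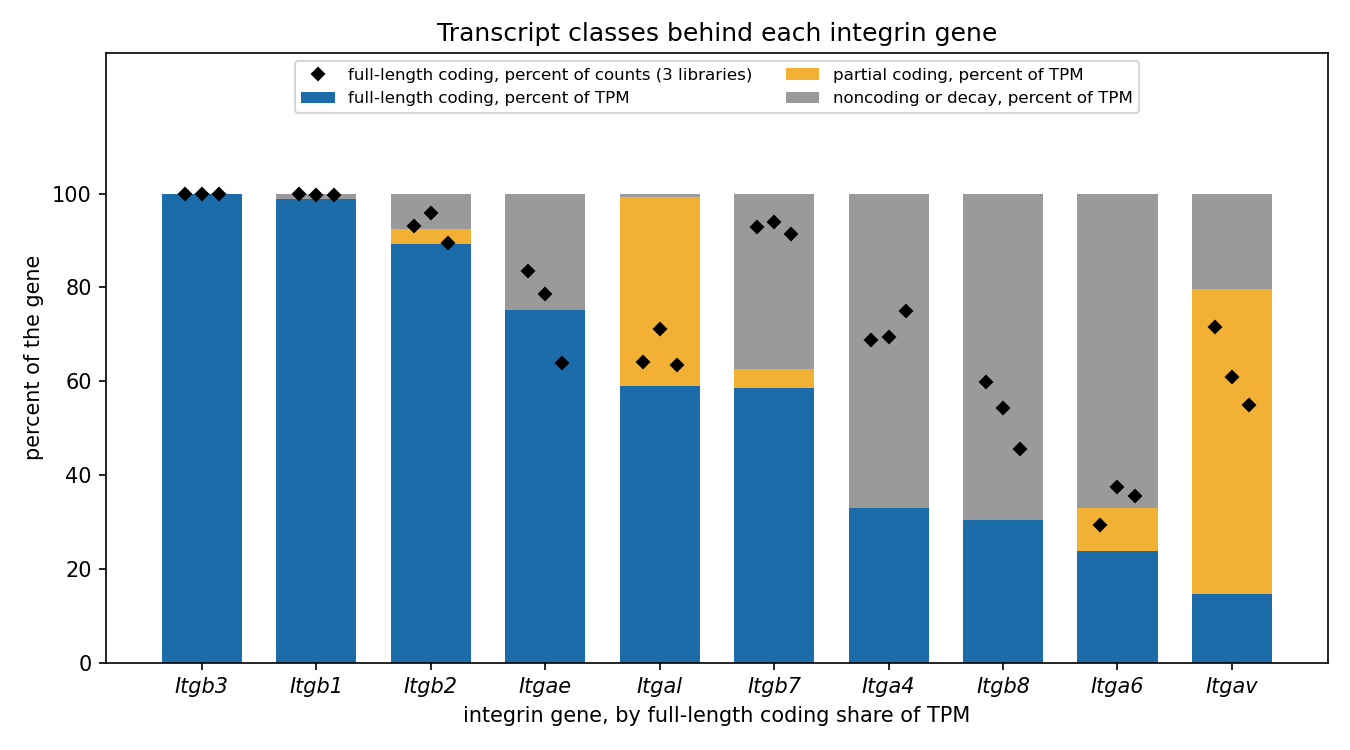
Share of each integrin gene's TPM in full-length coding, partial coding and noncoding or decay transcripts (stacked bars, mean of 3 libraries, percent), with black diamonds for the full-length coding share of the gene's expected counts in each library. Itgb7, Itga4 and Itgav have diamonds far above the blue bar, with 92.7%, 71.0% and 62.5% of counts against 58.6%, 33.0% and 14.7% of TPM.

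The third question was how alpha and beta RNA compared within the 8 known pairs that have both chains in the list. The ratio was taken as alpha TPM over beta TPM in each library, with an exact 95% binomial interval for counting error. RNA ratios say nothing of the surface protein, and a chain with several partners enters several pairs.

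For alpha E beta 7 the ratio was 0.219 (0.210 to 0.229), 0.287 (0.275 to 0.300) and 0.216 (0.202 to 0.231) in replicates 1, 2 and 3. Alpha was the lower chain in every library, and the mean log2 ratio was -2.07 ± 0.23 (SD, n = 3). Alpha 4 beta 7 stood at 0.335 (0.322 to 0.347), 0.366 (0.352 to 0.381) and 0.382 (0.362 to 0.403), with a mean log2 ratio of -1.47 ± 0.10. Itgae and Itga4 summed to 0.60 ± 0.05 of the TPM of Itgb7, so beta 7 RNA exceeded that of its alpha partners together in each library.

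LFA-1 had ratios of 0.602 (0.582 to 0.622), 0.421 (0.408 to 0.433) and 0.380 (0.362 to 0.399), and a mean log2 ratio of -1.13 ± 0.35. Itgal was below Itgb2 in all 3 libraries, and the intervals of the libraries did not overlap. Of the alpha chains that pair with beta 2, Itgal made up 99.3% of the summed TPM, the others being Itgam, Itgax and Itgad. That alpha sum was 0.47 ± 0.12 of Itgb2, and 0.31 ± 0.07 with full-length coding transcripts alone. Itgb2 is also expressed by myeloid and B cells, whose summed markers are given above by library. Both sums were lowest in replicate 2. The highest myeloid marker by mean was Lyz2, at 17.7, 2.38 and 15.7 TPM in replicates 1, 2 and 3. Of both lists, only Ighm, Itgam and Adgre1 were highest in replicate 2, at 1128, 1.41 and 0.53 TPM. Itgam and Adgre1 had 34 and 12 counts there. The part of these cells in the Itgb2 level was not tested.

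The pairs with beta 1 differed by alpha chain. Alpha 4 beta 1 was closest to even, at 0.719 (0.693 to 0.746), 0.703 (0.676 to 0.731) and 0.629 (0.599 to 0.660), with a mean log2 ratio of -0.55 ± 0.10. Alpha 6 beta 1 was at -2.43 ± 0.13 and alpha v beta 1 at -2.40 ± 0.30 on the log2 scale. The 12 alpha chains known to pair with beta 1 summed to 1.15 ± 0.02 of Itgb1, and 92.4% of that sum came from Itga4, Itgav and Itga6. The sum exceeded Itgb1 by gene TPM and in the second quantification, where it was 1.17 ± 0.03 of Itgb1. It was 0.57 ± 0.02 of Itgb1 with M4 counts per coding base, described below, and 0.34 ± 0.02 with full-length coding transcripts.

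Alpha v was the higher chain in both remaining pairs by gene TPM. Alpha v beta 8 was at 2.83 (2.51 to 3.20), 3.60 (3.10 to 4.19) and 5.77 (4.797 to 6.96), with a mean log2 ratio of 1.96 ± 0.52. Alpha v beta 3 was at 3.09 (2.74 to 3.48), 1.97 (1.73 to 2.23) and 10.5 (8.496 to 12.9), with a mean of 2.00 ± 1.25. Which chain was higher depended on how alpha v was counted. Another deposited table holds whole-number gene counts on the older M4 gene models, inferred from their ratio to the expected counts to cover coding sequence only. With M4 counts per coding base the mean log2 ratio was -0.26 ± 0.50 for alpha v beta 8 and -0.27 ± 1.14 for alpha v beta 3. With full-length coding transcripts alone it was 0.90 ± 0.46 and -0.80 ± 1.05. By M4 counts Itgav was at 8.68 ± 1.92 on the TPM scale, Itgb8 at 10.3 ± 1.47 and Itgb3 at 11.4 ± 5.33, and these ranges overlapped.

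For the other 6 pairs alpha was the lower chain under every measure, but the size of the gap changed. Alpha 4 beta 1 went as low as -2.14 ± 0.04 with full-length transcripts, where Itga4 was at 44.1 ± 2.04 TPM and Itgb1 at 195 ± 13.9 TPM. Alpha v beta 1 was at -5.19 ± 0.28 and alpha 6 beta 1 at -4.50 ± 0.28 by the same measure. Alpha E beta 7 moved less, to -1.71 ± 0.26. Within full-length transcripts alone, Itgae exceeded Itga4 in replicates 1 and 2, at 69.9 ± 25.3 TPM over the 3 libraries, whereas by gene TPM Itga4 exceeded Itgae in all 3.

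**Figure D3:**
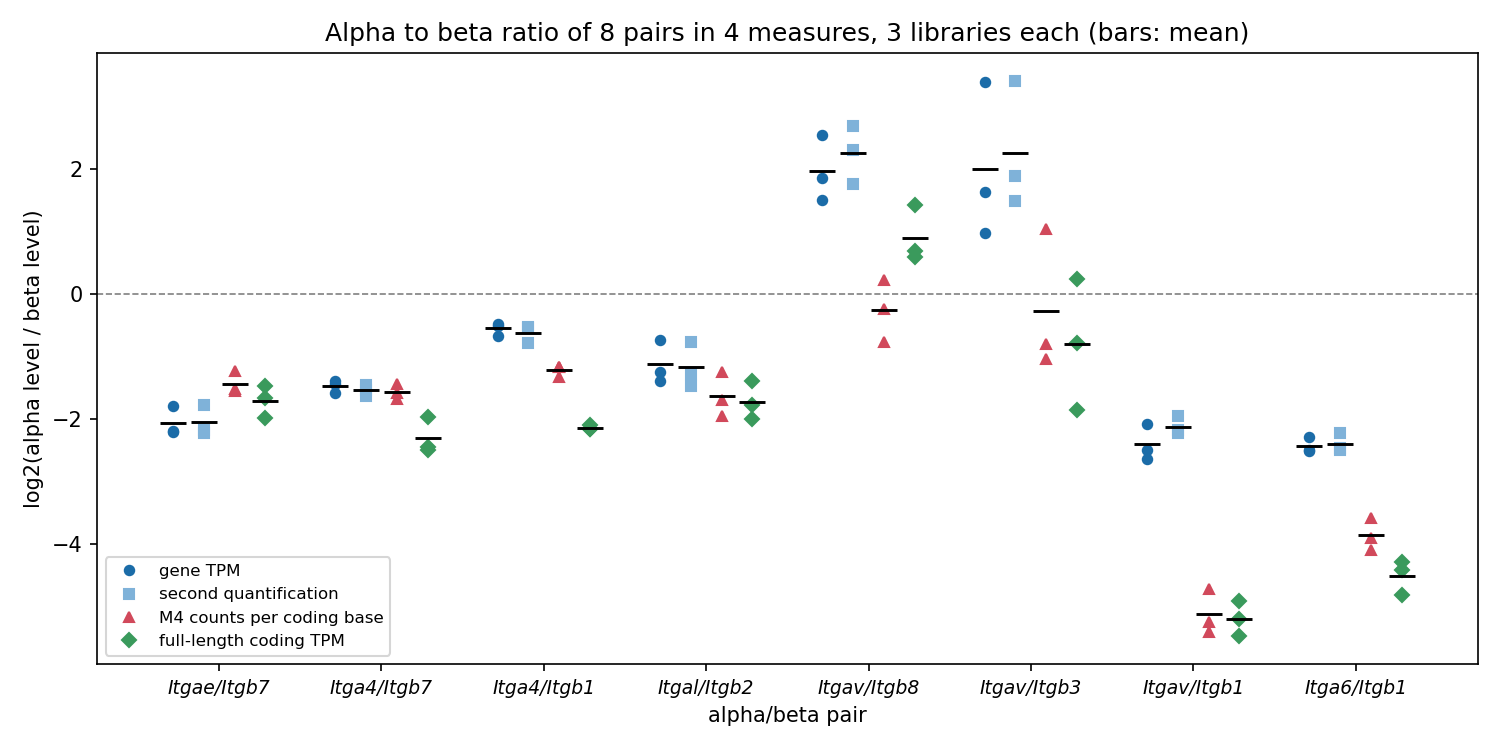
Log2 of alpha level over beta level for 8 pairs, each with 4 measures (gene TPM, second quantification, M4 counts per coding base, full-length coding TPM), 1 point per library and a black bar for the mean. Points for alpha v beta 8 and alpha v beta 3 fall on either side of the dashed line at 0 depending on the measure, while the other 6 pairs stay below it.

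The fourth question was whether the libraries differed beyond counting error. Counts were scaled by TMM, an estimate of relative library size, and each gene was tested by a chi-square test across the 3 libraries with Benjamini-Hochberg adjustment over all genes. The test called 9 of the 10 integrin genes, beside 65.3% of all 12997 genes, so a call was the common case. Adjusted p was 0.000763 or less for the 9 by this chi-square test, and it was 0.268 for Itga6. With edgeR's trended dispersion added to the variance, which takes in the spread typical of genes at each level, 1.31% of genes and none of the 10 were called. Itgb3 alone had an unadjusted p below 0.05 in that edgeR model, at 0.00231, and its adjusted p was 0.126.

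Itgb3 varied most. Its TMM-scaled CPM values were 52.2 (48.0 to 56.7), 72.0 (66.7 to 77.5) and 19.1 (15.9 to 22.7) in replicates 1, 2 and 3, with exact 95% Poisson intervals. The highest library was 3.77-fold above the lowest, a range larger than that of 95.2% of tested genes. Itgal, at 668, 765 and 411, ranged 1.86-fold, and Itgb8, at 49.3, 33.4 and 27.2, ranged 1.81-fold. Itgb2 and Itgae ranged 1.66-fold and 1.63-fold.

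Itgb3, Itgal, Itgb2 and Itgae were highest in replicate 2 and lowest in replicate 3. Itgb8, Itgb7, Itga4 and Itgb1 were highest in replicate 1 and lowest in replicate 3. Itgav was lowest in replicate 2, and Itga6 was highest in replicate 3. Replicate 3 had the fewest counts, the highest sums of B cell and plasma cell markers and the highest retained-intron share, and replicate 2 had the lowest sums of both marker lists. Foxp3 and Ctla4 TPM were also highest in replicate 3, and the other listed regulatory T cell markers were lowest there. The part of these in the integrin values was not tested. Itga4, Itgb1 and Itga6 were the steadiest, ranging 1.13-fold, 1.09-fold and 1.09-fold. Without replicate 2, Itgb2 and Itgav were no longer called, at adjusted p of 0.178 and 0.838 by the chi-square test. Without replicate 3, Itgb1 and Itga4 were no longer called, at 0.342 and 0.166.

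For Itgav the scale mattered for direction. Its TPM was highest in replicate 3, while its TMM-scaled counts were 49.8, 38.7 and 49.0 in replicates 1, 2 and 3, so replicates 1 and 3 did not differ beyond their intervals.

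**Figure D4:**
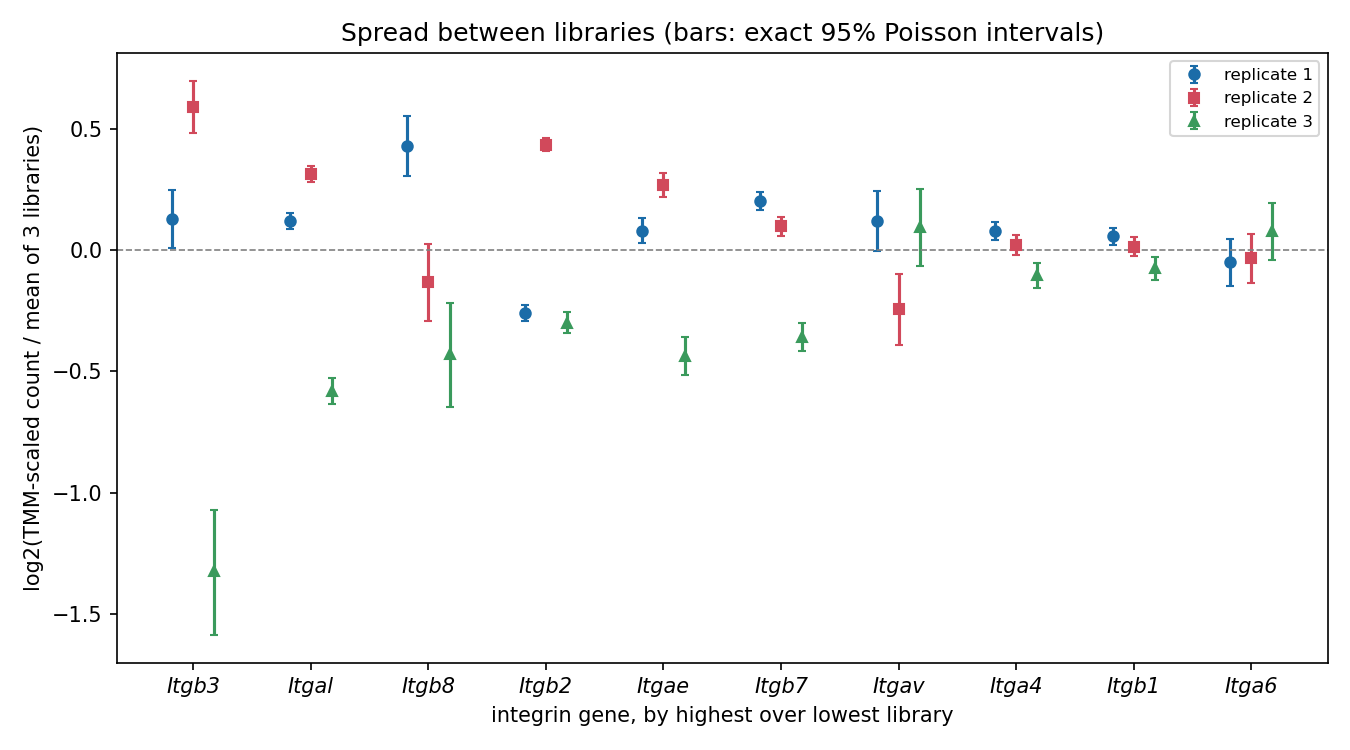
Log2 of each library's TMM-scaled count over the mean of the 3 libraries for the 10 integrin genes, ordered by the ratio of highest to lowest library, with exact 95% Poisson intervals as bars. Replicate 3 (triangles) is lowest for 8 of the genes, furthest for Itgb3 at -1.32, and the bars of Itga6 overlap.

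Of the 17 remaining mouse integrin genes, 3 were at 1 TPM or more in all libraries and none reached 10 TPM in all. Itga2, a collagen receptor chain, was the highest by mean, at 6.39, 13.6 and 5.73 TPM, although Itga7 exceeded it in replicate 3 at 8.05 TPM. Itga8 and Itgb4 were the lowest, each with a mean of 0.01 TPM. The median of the mean levels was 113 TPM over the 10 integrin genes described here, against 0.253 TPM over these 17. The myeloid chains Itgam, at 0.52, 1.41 and 0.66 TPM, and Itgax, at 0, 0 and 0.23 TPM, bear on the pairing of Itgb2 and fall outside the naming rule for this list, as does Itga7. Of the 6 genes of this list with enough counts to test, 2 were called by the chi-square test, beside 65.3% of all genes. None was called with the trended dispersion of edgeR, beside 1.31% of all genes, and 0 had an unadjusted p below 0.05 in that model.

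Proteins that switch integrins on and off were nearly all present. Of 39 listed regulators, 33 were at 1 TPM or more in all libraries and 31 at 10 TPM or more. Cd82, a tetraspanin that associates with integrins, was highest by mean TPM, at 564, 588 and 273 TPM, and Fermt1, a kindlin of epithelia, was lowest at 0.02, 0 and 0 TPM. Cytip, Fyb, Skap1 and Cd47 exceeded Cd82 in replicate 3, and Fyb, Skap1 and Cytip exceeded it by mean in the second quantification. Talin-1 (Tln1), which binds the first of the capitalised motifs in the beta tails, was at 90.7, 88.2 and 69.9 TPM. Kindlin-3 (Fermt3), the kindlin of blood cells, was at 226, 291 and 213 TPM, while Fermt2 was at 0.20, 0.53 and 0.29 TPM. Fermt2, and Tln2 at 0.22 ± 0.05 TPM, fall outside the naming rule and are given as the other forms of kindlin and talin in the list.

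The Rap1 route, which carries T cell receptor and chemokine signals to talin, was represented at each step by gene TPM. Its exchange factor Rasgrp2, at 118 ± 13.0 TPM, acts on Rap1a, at 156 ± 10.6 TPM, and Rap1b, at 70.2 ± 15.5 TPM. Rasgrp1, of the same family and listed with it, was at 47.7 ± 10.2 TPM. Rapgef1, another Rap1 exchange factor, was at 21.4 ± 4.20 TPM, and Sipa1, which switches Rap1 off, at 21.7 ± 6.76 TPM. The Rap1 effectors were Rassf5 (RAPL) at 269 ± 37.0 TPM and Apbb1ip (RIAM) at 66.1 ± 12.9 TPM, and Stk4 (Mst1) and Mob1a, which act with RAPL, were at 159 ± 10.03 and 49.3 ± 9.56 TPM. The adaptors Skap1 and Fyb, which bring RIAM to the membrane, were at 473 ± 84.3 and 449 ± 11.9 TPM. With full-length coding transcripts alone the means were lower, at 0 TPM for Rassf5, 10.4 for Apbb1ip, 29.5 for Rasgrp2 and 49.5 for Rap1a. The other genes of this route lay between 6.83 TPM for Sipa1 and 334 TPM for Skap1 by that measure. M4 counts per coding base put Rassf5 at 190 on the TPM scale.

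The integrin inhibitors and adaptors named next were also at 10 TPM or more in all libraries. Cytip, which binds cytohesin-1 and restrains LFA-1, was at 445 ± 95.1 TPM, and its target Cyth1 at 42.3 ± 2.88 TPM. Filamin A (Flna), which competes with talin for beta tails, was at 266 ± 74.8 TPM. Dok2 and Dok1, whose domains can bind the same tail motif, were at 203 ± 33.7 and 37.1 ± 8.96 TPM, and Sharpin and Itgb1bp1, which hold integrins inactive, were at 105 ± 9.03 and 72.2 ± 8.59 TPM. The adhesion adaptors Ilk, Lims1, Parvg, Pxn, Zyx and Vasp and the kinase Ptk2b ranged in mean level between 17.2 TPM for Pxn and 123 TPM for Ilk. Cd47 and Cd81, membrane partners of integrins, were at 247 ± 40.6 and 166 ± 21.5 TPM. Of 35 regulators tested, 32 were called by the chi-square test, beside 65.3% of all genes, and none with the trended dispersion of edgeR, where 0 had an unadjusted p below 0.05.

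Ligands of these integrins were listed together with anchors of latent TGF-beta, Lrrc32 and Nrros among them. The genes of this ligand list were mostly low in the cells' own RNA, with 8 of 22 at 1 TPM or more and 4 at 10 TPM or more in all libraries. Lrrc32 (GARP), which anchors latent TGF-beta on regulatory T cells where alpha v beta 8 can reach it, was highest by mean TPM, at 70.0, 71.9 and 65.2 TPM. Nrros, a related anchor described in myeloid cells, was at 56.3, 73.7 and 49.6 TPM. Tgfb1, the highest by mean of the listed TGF-beta genes, was far lower, at 3.70, 6.07 and 7.96 TPM from 73, 88 and 65 counts. Its mean was 1.98 TPM with full-length coding transcripts alone. Tgfb1 falls outside the naming rule and is given because alpha v beta 8 binds latent TGF-beta. Icam1, at 50.8, 68.7 and 43.0 TPM, and Icam2, at 89.5, 71.2 and 20.3 TPM, are the LFA-1 ligands, and Icam2 was lowest in replicate 3. Icam2 exceeded Lrrc32 in replicate 1 and Nrros exceeded it in replicate 2, and in the second quantification Icam2 was highest by mean, at 41.2 TPM against 37.8 TPM for Lrrc32. Lamb1 was the lowest ligand at 0, 0.08 and 0 TPM. Of 11 ligand genes tested, 9 were called by the chi-square test, beside the same 65.3% of all genes, and none with the trended dispersion of edgeR, where 3 had an unadjusted p below 0.05.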

How the data were processed

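The authors deposited 3 libraries separately, with no scaling between them, from sheared fragments of 100 to 300 bp. Per the file headers, the main gene and transcript tables hold expected counts, TPM and the percent of each gene's transcripts on M21 gene models, and a second transcript table holds estimated counts and TPM from another program. A deposited M4 table holds whole-number counts. Posterior SDs, an estimate of another kind, served only as a check. The labels and headers name neither the programs nor the strandedness. M4 counts per fragment were higher in genes with a larger coding share, at a median of 2.09 where the coding share of exons exceeded 90% and 0.893 where it was under 30%, so they were divided by coding bases. That they count coding sequence is inferred.

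Genes were matched to symbols by the pipe-separated transcript labels, and 26345 non-mouse-gene entries were left out. Expected counts were rounded for testing. Genes with a mean of at least 10 counts were tested by chi-square with edgeR 4.0.16 TMM sizes in R 4.3.3, with Benjamini-Hochberg adjusted p below 0.05 as the threshold, and the code was tested on simulated data. Alternatives were the edgeR trended dispersion, DESeq2 1.42.0 size factors, totals, other filters, the other deposited tables, a pseudocount and leaving out each library. The labels call the libraries technical replicates, so p-values and SDs measure only the spread between these libraries, which may be technical. Intervals cover counting error only, since reads that carry no molecular identifier may be copies of 1 molecule, and 0 counts allow up to 3. The members and lists were chosen with earlier results of these data known. Named genes were the 10 integrins and list genes that were highest, lowest or at 10 TPM or more in all libraries, and transcripts were named at 10% of TPM.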

Additional observations from a re-analysis of the deposited data

How the results depend on the processing

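The count of 9 integrin genes called by chi-square became 0 with the trended dispersion of edgeR (1 at an unadjusted p below 0.05). It was 9 with DESeq2 size factors, totals, no filter, a minimum mean of 50 or second-quantification counts, 10 with M4 counts, and 9, 7 and 7 without replicates 1, 2 and 3. Over all genes, 8492 of 12997 were called in the main test and 170 with the trended dispersion. The calls were 8497 and 8488 of 12997 with DESeq2 size factors and totals, 9010 of 27819 with no filter and 7326 of 9867 with a minimum mean of 50. They were 10379 of 17193 with second-quantification counts and 7972 of 10972 with M4 counts. Without replicates 1, 2 and 3 they were 6630 of 12880, 6994 of 12973 and 4188 of 13137. All 8 pair ratios stayed within 1 SD in the second quantification, with a pseudocount of 1 and without any 1 replicate. With M4 counts per coding base the mean log2 ratio turned to -0.26 for Itgav/Itgb8 and -0.27 for Itgav/Itgb3, and moved to -1.44 for Itgae/Itgb7, -1.22 for Itga4/Itgb1, -1.63 for Itgal/Itgb2, -5.12 for Itgav/Itgb1 and -3.85 for Itga6/Itgb1. With full-length coding transcripts only, an alternative chosen after seeing the data, it turned to -0.80 for Itgav/Itgb3 and moved to -1.71, -2.30, -2.14, -1.73, 0.90, -5.19 and -4.50 for Itgae/Itgb7, Itga4/Itgb7, Itga4/Itgb1, Itgal/Itgb2, Itgav/Itgb8, Itgav/Itgb1 and Itga6/Itgb1. That measure leaves out partial coding and noncoding transcripts by construction, long ones included, and the cause of the M4 differences was not tested. Levels in the second quantification moved by more than 1 SD for 9 genes, beside a median of 0.589 times the main TPM over all genes. TMM scaling of TPM moved none of the 10 by 1 SD and the median of all genes by at most 0.07 on the log2 scale. No paired analysis was possible because there was 1 group.

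Depth limits Itgb3, Itgb8 and Itgav most, with 127, 181 and 326 counts in replicate 3. There was 1 biological replicate, and neither surface protein nor the share of cells carrying each RNA was measured.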
